A study of Mus musculus with 6 samples.

Results

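The ribosomal RNA precursor gene Rn45s and 9 genes for RNA polymerase I and its nucleolar partners were followed in early mouse embryos, 10 of the 23259 gene names in the deposited table. The genes were listed by name with earlier results of these data known, and all 10 were in the table. Where a name had several rows, 1 row was selected on its total reads, the row with the highest sum over the columns, so total reads took part in the choice. The values below are therefore descriptions with counting intervals, and no p-value is given.

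The study labelled new RNA in 3 groups of 2 samples each, namely zygotes and 2-cell embryos of wild type (WT) and zygotes labelled Pabpn1l-null. Each sample pooled 50 embryos, which were kept for 2 h in 200 μM 4-thiouridine, a uridine analogue that cells build into RNA as they make it. Labelling started 26 h after the hCG injection that triggers ovulation, but that text is the same for every sample and speaks of zygotes alone, so when the 2-cell embryos were taken is unknown here. The labels used here do not say how the null allele was made, what the parents' genotypes were or which strain was used. Ribosomal RNA was depleted from all groups, and iodoacetamide then made labelled positions read as T-to-C mismatches. Pabpn1l encodes an oocyte poly(A)-binding protein that takes part in the decay of maternal mRNA, and the title of the series names this decay.

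Polymerase I transcribes the repeated ribosomal DNA into a long precursor, which is cut and modified in the nucleolus into the RNAs of the small and the large ribosomal subunit. The factor UBTF coats the active repeats, the selectivity factor SL1 marks the promoter, and RRN3 brings the polymerase to it. In the mouse this transcription is low in the fertilised egg, which holds compact nucleolar precursor bodies and stored ribosomes, and it resumes around the 2-cell stage.

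The table gives 1 column of total reads and 1 of T-to-C reads per group, so the spread between the samples of a group is not seen and differences lack a replicate check. The columns held 3001472 reads on named genes for WT zygotes, 1270347 for null zygotes and 4020444 for the 2-cell stage, of which 3.03%, 3.86% and 4.54% were T-to-C reads. Genes with exactly 1 read made up 6.90%, 1.88% and 3.87% of the detected genes in the same order, so single reads were scarcest in the shallowest column. For this reason each 7 reads were taken as 1 molecule, for all columns alike, and where no read was counted the level could still reach 3 molecules, or 21 reads. Intervals are exact 95% intervals on molecules and reflect counting error alone, as PCR copies are not independent molecules. A gene was called higher or lower where its ratio was at least 2-fold and the interval lay on one side of 1. Pabpn1l itself had 47 reads in the WT zygote column, 4 in the null zygote column and 14 in the 2-cell column, and its null-to-WT ratio of 0.192 (0.000387 to 2.24) was not beyond counting error. The 9 oocyte and zygote markers summed to 37771, 20761 and 12500 reads in the WT zygote, null zygote and 2-cell columns, and the 7 markers of the 2-cell embryo in the table to 59, 8 and 12284. The 14 cumulus and granulosa cell markers summed to 133, 27 and 50 reads, with Inha, Amh, Cyp11a1 and Ptx3 at 0 in every column. The 9 sperm markers summed to 444, 274 and 1751, nearly all of them from Odf2 (436, 274 and 1747), with Prm1, Tnp2, Smcp and Gapdhs at 0 in every column and Tnp1 and Akap4 at 2 reads each in the 2-cell column alone, and the 6 blood markers in the table to 42, 1 and 53, with Ptprc and Hbb-b1 at 0 in every column. In the 2-cell column alone Hba-a1 and Hba-a2 were at 14 reads each and Lyz2 at 2. The part of these cells in the results was not tested.

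Rn45s, the entry for the precursor of the ribosomal RNAs, had far more reads in 2-cell embryos than in either zygote group. It had 3078 reads in the WT zygote column, 8884 in the null zygote column and 189290 in the 2-cell column. Scaled to the size of each column, these were 1029, 6712 and 48872 RPM, reads per 1000000 scaled reads. The 3 columns were thus well apart, with WT zygotes lowest and 2-cell embryos highest. The 2-cell level was 47.5 times the WT zygote level (interval 43.2 to 52.3), and the null zygote level was 6.52 times it (5.85 to 7.28). Rn45s held 0.103% of all reads in the WT zygote column, 0.699% in the null column and 4.71% in the 2-cell column, where it was the gene with the most reads. Because ribosomal RNA had been depleted, the amount in the embryo and the amount that the depletion left behind cannot be told apart in these columns. How many of these reads came from the precursor and how many from the ribosomal RNAs cut from it was not tested. Levels are scaled to the reads of each column, so amounts per embryo or per cell are not given.

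Labelled Rn45s reads also differed, but over a narrower range than the total. T-to-C reads numbered 1097 in the WT zygote column, 1699 in the null zygote column and 6036 in the 2-cell column, or 367, 1284 and 1558 T-to-C RPM. On this scale WT zygotes were lowest, and null zygotes were close to 2-cell embryos. The null-to-WT ratio was 3.50 (2.85 to 4.30) and the 2-cell-to-WT ratio 4.25 (3.58 to 5.07), while 2-cell embryos exceeded null zygotes by 1.21 (1.05 to 1.41). Scaled by the total of T-to-C reads in place of all reads, the null-to-WT ratio was 2.88 (2.34 to 3.54) and the 2-cell-to-WT ratio 2.74 (2.31 to 3.27). These intervals overlap, so the order of the null and 2-cell columns is not settled on that scale. Rn45s held 1.21% of all T-to-C reads in the WT zygote column, 3.47% in the null column and 3.31% in the 2-cell column. Reads of Rn45s without a T-to-C mismatch went from 1981 in the WT column to 7185 in the null column and 183254 in the 2-cell column, ratios to WT of 8.19 (7.18 to 9.38) and 71.4 (63.5 to 80.6). Unlabelled reads thus made up most of the difference from WT zygotes in both other columns.

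The labelled share of Rn45s ran in the opposite order to its level. T-to-C reads were 35.6% of Rn45s reads in WT zygotes (31.2 to 40.3), 19.1% in null zygotes (17.0 to 21.4) and 3.19% in 2-cell embryos (2.98 to 3.41). The intervals of the 3 columns did not overlap. Among 2309 genes with at least 100 reads in every column, the median share was 2.16%, 2.74% and 2.09% in the same order. Rn45s ranked 9 from the top in the WT zygote column, 21 in the null column and 719 in the 2-cell column. It thus went from an extreme share to one above the median but far from the top. No unlabelled control was analysed here, and an unknown part of T-to-C reads comes from sequencing error or from sequence differences. In the authors' deposited table Rn45s is marked Positive for labelling in all 3 columns, by a criterion that the sources used here do not state.

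**Figure D1:**
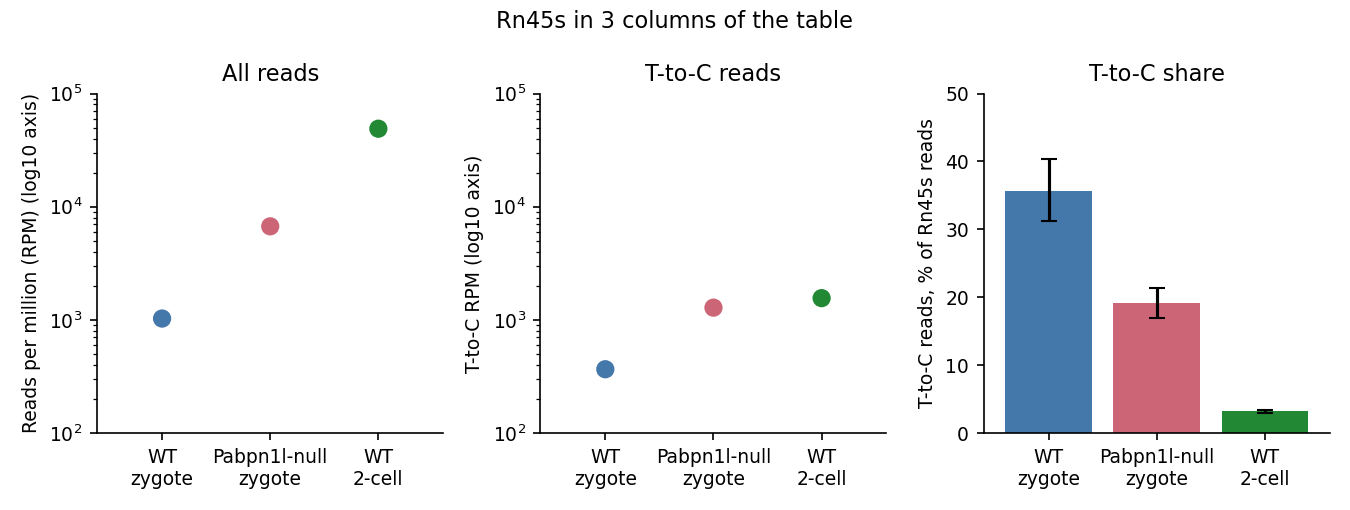
Rn45s in WT zygotes, Pabpn1l-null zygotes and WT 2-cell embryos, 1 column each, as scaled total reads (left, log axis), scaled T-to-C reads (middle, log axis) and T-to-C reads as a percent of its reads (right, bars with exact 95% intervals on molecules of 7 reads). Total reads run from 1029 to 48872 RPM and T-to-C reads from 367 to 1558, while the share goes from 35.6% to 3.19%.

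One other gene had this pairing of a high labelled share in zygotes with a low one in 2-cell embryos. It was picked out after its values were seen. Lars2, which encodes the mitochondrial leucyl-tRNA synthetase and lies on chromosome 9 at 123366927 to 123462675 (GRCm38), had 1414 reads in the WT zygote column, 1730 in the null zygote column and 16693 in the 2-cell column. Of these 787, 638 and 992 were T-to-C reads, or 55.7% (48.5 to 62.6), 36.9% (30.9 to 43.2) and 5.94% (5.03 to 6.97). Ordered by the drop in share from WT zygotes to 2-cell embryos, Lars2 with 49.7 percentage points and Rn45s with 32.5 percentage points came first and second of the 2309 genes, ahead of the calponin gene Cnn1 (40.2% and 19.6%). The Lars2 locus is known to hold a stretch that resembles ribosomal RNA, and whether reads of ribosomal RNA entered its row was not tested.

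**Figure D2:**
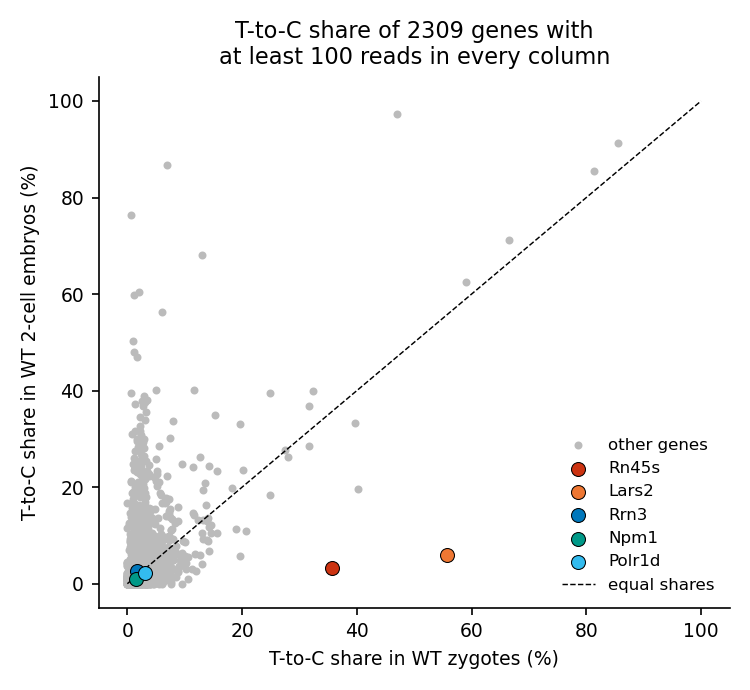
T-to-C share in WT zygotes (x axis, %) against WT 2-cell embryos (y axis, %) for 2309 genes with at least 100 reads in every column, 1 point per gene, with the dashed line at equal shares. Rn45s (35.6% and 3.19%) and Lars2 (55.7% and 5.94%) lie far below the line, and Rrn3, Npm1 and Polr1d lie in the dense group under 4% on both axes.

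Rpph1, listed with other structural RNAs, had its highest labelled share in 2-cell embryos. It is the RNA subunit of RNase P and a polymerase III transcript, and it had 533 reads in the WT zygote column, 234 in the null zygote column and 13897 in the 2-cell column, 20.1 times higher in 2-cell embryos than in WT zygotes (16.0 to 25.7). Its T-to-C share was 6.0% in the WT zygote column, 2.56% in the null zygote column and 56.3% in the 2-cell column. High total reads in the 2-cell column therefore went with a high labelled share for Rpph1 and with a low one for Rn45s. Between null and WT zygotes the total of Rpph1 differed little, with a ratio of 0.992 (0.640 to 1.51), where Rn45s had 6.52. Of the 17 structural RNAs listed, Rpph1, Rmrp and Terc were in the table. All 3 were called higher in 2-cell embryos, beside 18.6% of all genes tested. None was called in null zygotes, where 2.34% of all genes tested were higher and 2.21% lower, so none among so few says little. Rmrp, the RNA of RNase MRP that cuts the ribosomal precursor, had 36, 0 and 487 reads in the WT zygote, null zygote and 2-cell columns (2-cell-to-WT ratio 10.4, 4.31 to 32.5). The telomerase RNA Terc had 94, 30 and 550 (4.52, 2.51 to 8.76). In the 2-cell column 2 of the Rmrp reads and 3 of the Terc reads were T-to-C reads, shares of 0.411% (up to 5.96) and 0.545% (up to 5.63). The high labelled share of Rpph1 in 2-cell embryos was thus not seen in the other structural RNAs of the table.

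The genes with the total-read pattern nearest to that of Rn45s were Tsc22d3, Isg20l2, Pnpla3, Pxdn and Ddx54. Likeness was the Euclidean distance in log2 scaled reads centred over the 3 columns, taken over 5511 genes with at least 200 reads in all, and the 5 distances were 0.27 to 0.42. Each of the 5 had 0 to 2 reads in the WT zygote column, 6 to 16 in the null column and 215 to 364 in the 2-cell column, so their zygote levels rest on few reads. By this measure Lars2 ranked 63, at a distance of 1.69.

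Among all 10 members, 6 were called higher and 1 lower in total reads in 2-cell embryos against WT zygotes, where 18.6% of the 11262 genes tested were higher and 18.0% lower. In null against WT zygotes 1 was called higher and 1 lower, where 2.34% of all genes tested were higher and 2.21% lower. Both comparisons share the WT zygote column. All 10 members passed the minimum of 20 reads over the 3 columns, 2 of them (Polr1c and Ubtf) through the 2-cell column alone. Total reads were used to choose rows, so nothing is read from these counts against the background.

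Of the catalytic pair, the second-largest subunit gene was higher in 2-cell embryos. Polr1a, the largest subunit, which holds the active site together with POLR1B, lies on chromosome 6 at 71909053 to 71979435 and had 45 reads in the WT zygote column, 55 in the null zygote column and 83 in the 2-cell column, or 15.0, 41.6 and 21.4 RPM. It was highest in null zygotes, but the null-to-WT ratio of 2.76 had an interval of 0.850 to 9.35 and the 2-cell-to-WT ratio of 1.42 one of 0.503 to 4.46, so none of these neighbours differed beyond counting error. Polr1b, the second-largest subunit, on chromosome 2 at 129100970 to 129128060, had 45, 10 and 298 reads, or 15.0, 7.56 and 76.9 RPM. The 2-cell column stood above both zygote columns, 5.11 times above WT zygotes (2.22 to 14.1) and 10.2 times above null zygotes (2.18 to 161). The zygote columns did not differ beyond counting error, with a null-to-WT ratio of 0.502 (0.0276 to 3.25).

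The genes nearest to Polr1a by the same distance were Ier5l, P4hb, Fbxo10, Pdzrn3 and Ddx19b, at 0.08 to 0.17. Their reads ranged from 52 to 446 in the WT zygote column, from 68 to 564 in the null column and from 112 to 843 in the 2-cell column.

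The 2 subunits that polymerase I shares with polymerase III behaved differently. POLR1C and POLR1D form the dimer on which both enzymes are assembled. Polr1c, on chromosome 17 at 46243920 to 46248045, had 2 reads in the WT zygote column, 0 in the null zygote column and 124 in the 2-cell column. Nearly all of its reads were in the 2-cell column, and the 2-cell-to-WT ratio was 47.9 with a lower end of 2.86 and an upper end that 2 reads do not fix. Against null zygotes, with no read, the interval of the ratio began at 1.48. Polr1d, on chromosome 5 at 147076715 to 147111361, had 266, 124 and 519 reads, or 89.0, 93.7 and 134 RPM, a 2-cell-to-WT ratio of 1.51 (1.01 to 2.29) under the 2-fold line and a null-to-WT ratio of 1.05 (0.563 to 1.90). A second Polr1d row, not kept, had 194, 82 and 70 reads, and its 2-cell-to-WT ratio was 0.279 (0.121 to 0.592). With both rows summed, the ratio was 0.989. The table does not say which transcripts the 2 rows hold.

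Polr1e was the protein gene called between the zygote groups. POLR1E pairs with the product of Cd3eap in a polymerase I subcomplex that aids initiation and elongation. Polr1e, on chromosome 4 at 45018609 to 45034279, had 148 reads in the WT zygote column, 17 in the null zygote column and 93 in the 2-cell column, or 49.5, 12.8 and 24.0 RPM. WT zygotes were highest and null zygotes lowest, with a null-to-WT ratio of 0.259 (0.0388 to 0.960). This call was lost when columns were scaled by their totals and when an adjusted p took the place of the interval. The 2-cell-to-WT ratio of 0.485 (0.225 to 1.01) reached 1 at its upper end, and the null and 2-cell columns did not differ beyond counting error (1.87, 0.468 to 13.0).

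**Figure D3:**
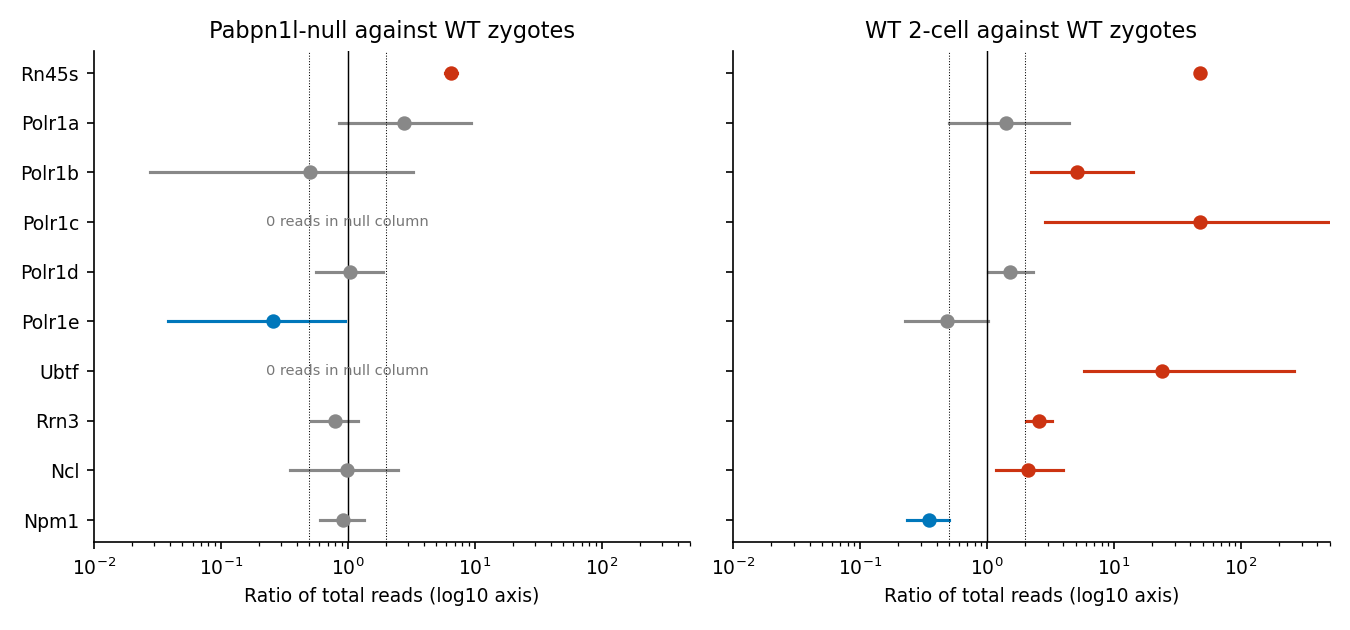
Ratio of scaled total reads (log axis) of the 10 genes in Pabpn1l-null zygotes (left) and WT 2-cell embryos (right) against WT zygotes, with exact 95% intervals on molecules of 7 reads, a solid line at 1 and dotted lines at 2-fold either way. Red marks genes called higher, blue genes called lower and grey the rest, the interval of Polr1c runs off the right edge, and Rn45s with 6.52 is the 1 gene in red on the left.

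Both initiation factors among the members were higher in 2-cell embryos. Ubtf, the HMG-box protein that opens ribosomal DNA, on chromosome 11 at 102304560 to 102323649, had 12 reads in the WT zygote column, 0 in the null zygote column and 370 in the 2-cell column. Both zygote columns were at or under the floor of 21 reads, and the 2-cell level was 23.8 times that of WT zygotes (5.75 to 261) and the interval of its ratio to null zygotes began at 4.73. Rrn3, which carries polymerase I to the promoter and is switched by growth signals, on chromosome 16 at 13780699 to 13814841, had 644, 227 and 2125 reads, or 215, 171 and 549 RPM. Rrn3 was well covered in every column, and the 2-cell column was 2.55 times above WT zygotes (2.01 to 3.25) and 3.20 times above null zygotes (2.22 to 4.75). The zygote columns did not differ beyond counting error (null-to-WT ratio 0.796, 0.516 to 1.20).

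The upstream sequences of 3 polymerase I genes and of Ubtfl1, a UBTF-like HMG-box gene of the early embryo from the list of initiation factors, are shown because these 4 were called higher in 2-cell embryos and have 1 start each in the RefSeq promoter table. Each is the 250 bases before the start that table gives on GRCm38.p6, 5′ to 3′ on the gene's strand, at chr16:13780449-13780698 (plus) for Rrn3, chr2:129100746-129100995 (plus) for Polr1b, chr17:46248046-46248295 (minus) for Polr1c and chr9:18404168-18404417 (plus) for Ubtfl1. The last 26 bases of the Polr1b window lie inside the gene as annotated, and the other windows end just before it. Capitals mark every match, on either strand, to the E-box CACGTG, the ETS motif CCGGAAG, the GC box GGGCGG and the CCAAT box, found by search with matches allowed to overlap.
Rrn3: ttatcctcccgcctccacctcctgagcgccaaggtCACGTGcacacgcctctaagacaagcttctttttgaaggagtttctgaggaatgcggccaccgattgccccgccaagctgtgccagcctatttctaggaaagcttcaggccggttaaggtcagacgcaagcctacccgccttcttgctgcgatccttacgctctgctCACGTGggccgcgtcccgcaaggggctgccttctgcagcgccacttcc
Polr1b: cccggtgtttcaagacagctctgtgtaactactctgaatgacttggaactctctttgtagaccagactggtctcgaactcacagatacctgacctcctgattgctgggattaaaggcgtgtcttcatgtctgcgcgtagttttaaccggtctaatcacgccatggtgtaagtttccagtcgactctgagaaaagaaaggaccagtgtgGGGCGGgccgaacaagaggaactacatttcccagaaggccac
Polr1c: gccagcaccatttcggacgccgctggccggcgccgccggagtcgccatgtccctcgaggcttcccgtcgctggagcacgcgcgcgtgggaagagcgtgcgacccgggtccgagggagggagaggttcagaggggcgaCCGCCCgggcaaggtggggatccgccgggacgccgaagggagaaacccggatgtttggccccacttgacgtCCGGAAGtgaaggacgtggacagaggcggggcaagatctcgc
Ubtfl1: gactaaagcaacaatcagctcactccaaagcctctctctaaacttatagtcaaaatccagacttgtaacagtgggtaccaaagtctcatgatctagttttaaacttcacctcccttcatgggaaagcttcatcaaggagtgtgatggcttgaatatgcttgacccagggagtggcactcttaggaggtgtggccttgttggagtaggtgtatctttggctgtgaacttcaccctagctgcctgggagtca
Rrn3 held 2 E-boxes, which start 215 and 48 bases before that start, where 6.02% of 32851 promoter windows of the same length held at least 1 and 0.429% at least 2. Polr1c held 1 ETS motif (6.91% of windows) 42 bases upstream and 1 GC box (32.7% of windows) 113 bases upstream, and Polr1b held 1 GC box 42 bases upstream. None of the 4 windows held the CCAAT box, found in 33.8% of windows, and Ubtfl1 held none of the 4 motifs. These matches are descriptions of letters, not binding sites.

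The other factors of initiation and termination included a gene hardly seen in zygotes. Ubtfl1, on chromosome 9 at 18404418 to 18411502, had 0 reads in the WT zygote column, 0 in the null zygote column and 1002 in the 2-cell column, with an interval of the 2-cell-to-WT ratio that began at 29.6, and 13 T-to-C reads, all in the 2-cell column. Ttf1, which binds the terminators of ribosomal DNA, had 0, 0 and 122 reads (interval from 3.28), and Ptrf, named as a release factor of polymerase I transcripts, had 26, 1 and 302 (2-cell-to-WT ratio 8.97, 3.16 to 36.7). Tbp, the TATA-binding subunit of SL1, went the other way with 219, 52 and 122 reads (0.430, 0.225 to 0.797), a call lost with RLE scaling. Of the 8 listed factors in the table, 7 were tested, and 3 were higher and 1 lower in 2-cell embryos, beside 18.6% and 18.0% of all genes tested. These counts are no result about the list. As 4 of the 7 (Taf1b, Taf1c, Ttf1 and Ubtfl1) passed the minimum through the 2-cell column alone, no median is given, and comparisons between the zygote groups say nothing of Ttf1 and Ubtfl1. The SL1 subunit genes Taf1b and Taf1c had at most 35 reads in any column, and Taf1a had 0 in all 3. Taf1d of the same list had 49, 0 and 91 reads, with a 2-cell-to-WT ratio of 1.43 (0.532 to 4.24).

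Further subunit genes of polymerase I were in part higher in 2-cell embryos. Of 8 that were in the table, 7 passed the minimum, and 4 were higher and 0 lower, where 18.6% and 18.0% of all genes tested were. As 3 of the 7, Polr2f and Polr2h among them, passed the minimum through the 2-cell column alone, no median is given and nothing is read from the count. Cd3eap, the partner of Polr1e, had 27 reads in the WT zygote column, 28 in the null zygote column and 214 in the 2-cell column (2-cell-to-WT ratio 6.12, 2.13 to 24.6). Polr2l, Polr2f and Polr2h, which all nuclear polymerases share, had ratios of 6.79 (3.35 to 15.8), 5.64 (1.24 to 57.7) and 10.8 (1.64 to 457). None was called in null against WT zygotes, where 2.34% of all genes tested were higher and 2.21% lower, so none among so few says little. Of the 7 subunits of polymerase II alone, 6 were tested and 0 were called in either comparison. The 11 subunits of polymerase III alone were all tested, and 3 were higher (Polr3d, Polr3e and Polr3g) and 1 lower (Polr3f) in 2-cell embryos. Of all genes tested 18.6% were higher and 18.0% lower there, so nothing is read from the counts of these lists. In each of these further lists 2 genes passed the minimum only with their 2-cell reads added, Polr3e and Polr3g among them, so no median is given there either. The difference between these subunit lists was not tested. Polr3f was also lower in null zygotes, with 516 reads in the WT and 55 in the null column (0.241, 0.0993 to 0.503). Its lower call in 2-cell embryos was lost with RLE scaling, and the higher call of Polr3e with an adjusted p.

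**Figure D4:**
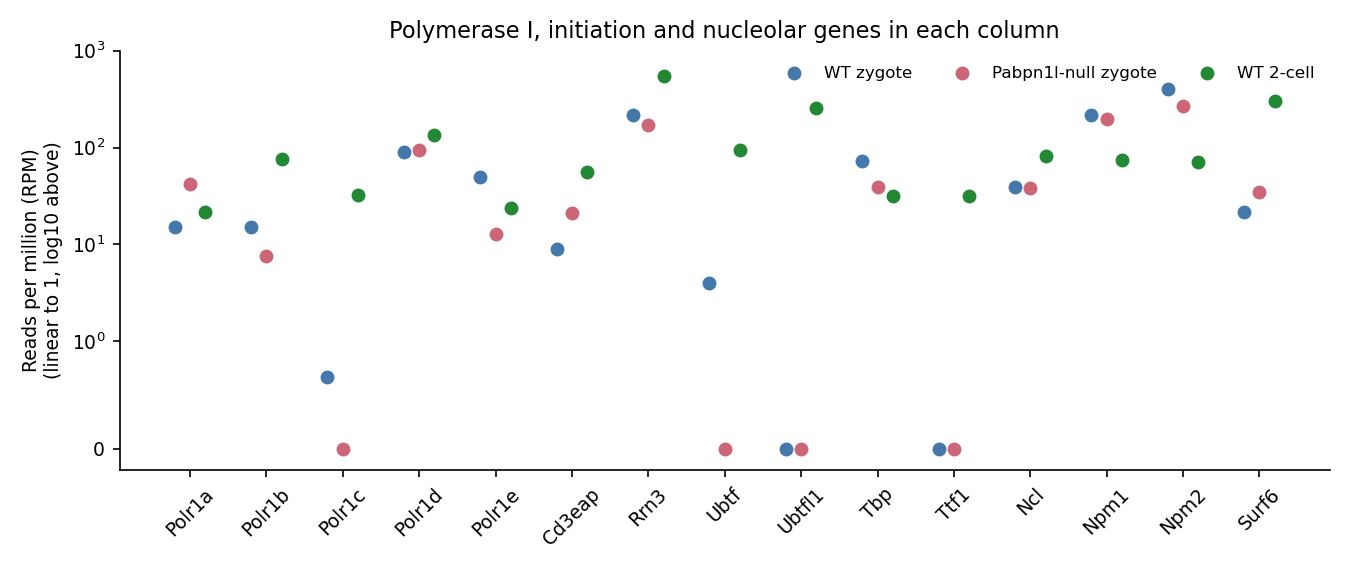
Scaled total reads in RPM (linear up to 1, log above) of 9 members other than Rn45s and of 6 further genes, in WT zygotes, Pabpn1l-null zygotes and WT 2-cell embryos, 1 point per column. Ubtf, Ubtfl1, Ttf1 and Polr1c are at 0 in null zygotes, at most 4.01 in WT zygotes and between 31.5 and 259 in 2-cell embryos, while Npm1, Npm2 and Tbp are lowest in 2-cell embryos.

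The nucleolar proteins among the members differed in direction. Ncl encodes nucleolin, which binds the nascent precursor, and lies on chromosome 1 at 86344719 to 86359455. It had 117 reads in the WT zygote column, 51 in the null zygote column and 320 in the 2-cell column, or 39.1, 38.5 and 82.6 RPM. The zygote columns did not differ beyond counting error (ratio 0.985, 0.351 to 2.48), and 2-cell embryos were 2.11 times above WT zygotes (1.18 to 3.95). Npm1 encodes nucleophosmin, a chaperone of ribosome assembly in the outer nucleolus, and lies on chromosome 11 at 33152498 to 33164142. It had 645, 261 and 290 reads, or 216, 197 and 74.9 RPM, and was lower in 2-cell embryos than in WT zygotes (0.347, 0.235 to 0.506). A second Npm1 row, not kept, had 218, 62 and 303 reads with a 2-cell-to-WT ratio of 1.07 (0.662 to 1.76). With both rows summed the ratio was 0.530 and the call was lost. Reads of Npm1 may be shared with near-identical copies in the genome.

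In the list of other nucleolar proteins 13 of 14 were tested, and 4 were higher and 1 lower in 2-cell embryos, beside 18.6% and 18.0% of all genes tested. As 3 of the 13, Nop2 among them, passed the minimum only with their 2-cell reads added, no median is given. Higher were Surf6, a factor of large-subunit assembly, with 64, 46 and 1179 reads in the WT zygote, null zygote and 2-cell columns (14.2, 7.35 to 31.4), Nop2, a methyltransferase of ribosomal RNA (30.8, 4.64 to 2117), and the pseudouridylation proteins Nop10 (4.09, 1.43 to 15.4) and Nhp2 (3.55, 1.26 to 12.8). Npm2, the oocyte nucleoplasmin, had 1205, 359 and 275 reads and was lower in 2-cell embryos (0.176, 0.121 to 0.250). None of the list was called in null zygotes, where 2.34% of all genes tested were higher and 2.21% lower, so none among so few says little. Fbl, the methyltransferase fibrillarin, had 0, 0 and 6 reads, all under the floor.

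Regulators of ribosomal DNA transcription were called in both directions, in 2-cell embryos at shares near those of all genes. Of 25 listed, 23 were in the table and 22 were tested, and 6 were higher and 5 lower in 2-cell embryos, where 18.6% and 18.0% of all genes tested were, so the counts are no result about this list. No median is given, as 4 of the 22 passed the minimum through the 2-cell column alone. Among the higher were Mycn (1 read in the WT zygote column, 0 in the null column and 234 in the 2-cell column), Nol11, a factor of precursor transcription and processing (1, 0 and 214), and Pwp1 (10, 0 and 165). Kdm2b, a histone demethylase of the ribosomal DNA, was lower with 1374, 661 and 299 reads (0.168, 0.118 to 0.235), as were Rrp8 (0.240, 0.111 to 0.480), a silencer of ribosomal DNA, and Utp15 (0.255, 0.116 to 0.519). The call of Sirt7, a coactivator of polymerase I, as lower (0.470, 0.221 to 0.965) was lost with RLE scaling and with an adjusted p. In null against WT zygotes 2 were higher and 2 lower, beside 2.34% and 2.21% of all genes tested. Wdr43, a component of the machinery that couples precursor transcription to processing, had 493 reads in the WT and 62 in the null column (0.284, 0.124 to 0.573). The calls of Kdm2a as lower (0.236, 0.0267 to 0.977), of Heatr1 as higher (6.78, 1.44 to 51.0) and of Cirh1a as higher (2 and 25 reads) were each lost with an adjusted p, and that of Kdm2a also with column totals, with or without Rn45s.

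T-to-C reads of the protein genes were few. Of the 10 members 6 reached the minimum of 10 T-to-C reads over the 3 columns, and Rn45s alone was called, higher in null zygotes and in 2-cell embryos against WT zygotes. Of all 4376 genes tested in T-to-C reads, 0.708% were higher and 0.0914% lower in null zygotes, and 7.86% and 2.97% in 2-cell embryos. Rrn3 had 11, 7 and 57 T-to-C reads in the WT zygote, null zygote and 2-cell columns, or 1.71%, 3.08% and 2.68% of its reads. The measured share of Rrn3 was under 4% in every column, but its intervals (0.135 to 6.91, 0.0780 to 16.0 and 1.18 to 5.19) all reach above 4%. Its total level in 2-cell embryos was 2.55 times that of WT zygotes. In the authors' deposited table Rrn3 is the 1 protein gene of the 9 marked Positive, and in the 2-cell column alone. Ncl had 16, 3 and 3 T-to-C reads, or 13.7%, 5.88% and 0.938%, with intervals that overlap (2.08 to 39.1, 0.00182 to 47.5 and 0.000300 to 9.50). Npm1 had 10, 2 and 3 and Polr1d 8, 0 and 11. Ubtf, Polr1a and Polr1b had T-to-C reads in the 2-cell column alone, 10, 8 and 6 of 370, 83 and 298 reads. With 7 reads as 1 molecule none of these protein genes was called in T-to-C reads. With 1 read as 1 molecule Ubtf and Rrn3 were called higher and Ncl and Npm1 lower in 2-cell embryos against WT zygotes.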

How the data were processed

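The genome build was mm10, as the submitters' processing notes state. The sources used here do not name the aligner, the counter or the annotation, nor say how duplicates were treated or how many mismatches make a T-to-C read. The authors deposited 1 table of counts with 30493 rows and, for each of the 3 groups, whole-number counts of reads and of T-to-C reads and a Positive or Negative mark. Whether the samples of a group were merged into its column is not stated there. The 47 rows named by a date were left out, repeated rows were dropped and 1 row per name was selected on its total reads.

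Columns were scaled by TMM factors (edgeR 4.0.16 on R 4.3.3) of 0.996 (WT zygote), 1.04 (null zygote) and 0.963 (2-cell), from genes with at least 20 reads, which also served for T-to-C reads. Ratios carry exact conditional binomial intervals (SciPy 1.17.1) with 7 reads as 1 molecule, shares exact Clopper-Pearson intervals, and log2 ratios 0.5 molecule added in proportion to column size. Genes needed at least 20 total reads or 10 T-to-C reads over the 3 columns. Named were all members, up to 4 called genes per list and, for Rn45s and Polr1a, the 5 nearest genes. Other names (Lars2, Cnn1, further called or low members of lists) were chosen after their values were seen. Members, lists, the 7 reads and the alternatives were chosen with earlier results of these data known. Coordinates and sequences are RefSeq's on GRCm38.p6, which held 9 members as genes and 8 with a promoter. Rn45s was not matched there.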

Additional observations from a re-analysis of the deposited data

Results flagged for a closer look

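Rows of 2 members were left out of the comparisons although they held reads above the floor of 21. The second Polr1d row had 346 reads over the 3 columns and was lower in 2-cell embryos than in WT zygotes (0.279), where the kept row had 1.51. The second Npm1 row had 583 reads, with a 2-cell-to-WT ratio of 1.07, where the kept row had 0.347. The cause of these differences between rows was not tested.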

How the results depend on the processing

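No paired analysis was possible because the table has 1 column per group, and leaving out replicates could not be run for the same reason. Against 10 alternatives, no call of a member turned to the opposite direction. The count of members past the call in null against WT zygotes, 2 in total reads, was 1 with column totals, with column totals without Rn45s and with an adjusted p, and 4 with 1 read as 1 molecule, where Polr1a was higher and Ubtf lower. The count in T-to-C reads of 2-cell embryos, 1, was 5 with 1 read as 1 molecule, and 5 with 7 reads as 1 molecule in the null column alone, which added Ubtf and Rrn3 as higher and Ncl and Npm1 as lower. The 2-cell-to-WT ratio of Rn45s was 57.0 with RLE factors for total reads. For T-to-C reads it was 5.10 with RLE factors and 2.74 when scaled by their own total. With RLE the median log2 ratio over all tested genes in 2-cell embryos went from 0.04 to 0.28, and the share of higher among calls from 50.8% to 60.9%. In null zygotes that share went from 51.4% to 60.9% with column totals, to 61.4% with column totals without Rn45s, to 40.7% with 1 read as 1 molecule and to 61.2% with 7 reads as 1 molecule in the null column alone. In T-to-C reads it went from 72.6% to 47.1% in 2-cell embryos and from 88.6% to 60.9% in null zygotes when these reads were scaled by their own total. With 1 read as 1 molecule it was 60.3% and 69.0%, and with T-to-C reads of the null column alone in molecules 60.3% and 97.0%. The cause of these moves was not tested.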
